A study of Mus musculus with 6 samples.

Results

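The genes of the enzymes that place or remove methyl and acetyl groups on histone lysines were followed in AB22 cells with and without a hairpin against Hmgb1. They were chosen by symbol and not by any measured value: every symbol that starts with Kmt, Kdm, Kat, Hdac or Sirt followed by a digit, together with Dot1l, Nsd1, Setdb1, Ep300, Crebbp and the Ezh, Ehmt and Suv39h pairs. Of the 12134 genes with values, 60 met the rule. They fall into 8 classes: 5 methyltransferases of histone H3 lysine 4 (H3K4), 5 of H3K9, 2 of H3K27, 5 of H3K36, H3K79 or H4K20, 16 lysine demethylases, 9 lysine acetyltransferases, 11 zinc-dependent deacetylases and 7 sirtuins. Classes were assigned by gene symbol, so a member such as Kmt2e need not have the activity its class names. GENCODE M21 on GRCm38, the source of all gene locations below, holds 63 protein-coding symbols that meet the rule.

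AB22 is a murine malignant mesothelioma line, a tumour of the cells that line the body cavities. The cells carried a pTRIPZ lentivirus whose short hairpin RNA is switched on by doxycycline, with a control hairpin in shCTRL and a hairpin against Hmgb1 in shHMGB1. Per the labels' protocols, both groups had virus at a multiplicity of infection of 20, puromycin at 4 µg/mL, tetracycline-free serum, 5% oxygen and 1 µM doxycycline, and all work was done 7 to 10 days after doxycycline was added, with RNA taken from cells held in G1. There were 3 biological replicates per group, A, B and C. The labels do not say whether they came from separate infections, and p-values reflect only how these cultures vary. The study's title concerns how nucleosomes shield DNA from breaks made by irradiation. HMGB1 is an abundant protein that binds and bends DNA in chromatin, and the comparison below asks whether the RNA of the chromatin-modifying enzymes differs when it is silenced.

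Methylation of histone lysines acts through the proteins that read it: H3K4 methylation marks active promoters and enhancers, H3K36 and H3K79 methylation lie over transcribed genes, and H3K9 and H3K27 methylation and methylated H4K20 are found in silent or compacted chromatin. Acetylation weakens the hold of histone tails on DNA and recruits bromodomain proteins. Methyltransferases and acetyltransferases write these marks, and demethylases, deacetylases and the NAD-dependent sirtuins remove them, mostly as subunits of larger complexes.

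The libraries held 12867332 to 23425330 reads in listed genes, as recovered from the steps between the deposited values. Hmgb1, which lies on chromosome 5 (149046702 to 149184489, minus strand), had 33.4, 45.5 and 31.9 RPKM (reads scaled by gene length and library size) in shCTRL A, B and C, against 7.18, 5.79 and 3.80 RPKM in the same replicates of shHMGB1. The groups did not overlap, with a log2 fold change of -2.73 (95% interval -3.33 to -2.13; limma, adjusted p = 0.0269). The call was absent without shCTRL A, B or C or shHMGB1 B, where the adjusted p was 0.137, 0.248, 0.115 and 0.197 in that order, while the log2 fold change stayed between -2.83 and -2.57. Of 11 mesothelial markers 3 had values, Msln, Bnc1 and Efemp1, and their summed level was 503 to 581 RPKM in shCTRL and 387 to 514 RPKM in shHMGB1. The lowest sum was that of shHMGB1 C. Most of the sum is Efemp1, whose groups overlapped. Msln had 57.8 to 82.8 RPKM in shCTRL and 27.9 to 39.1 RPKM in shHMGB1, and Bnc1 had 3.52 to 4.26 and 1.98 to 2.72 RPKM. These 2 were lower in every shHMGB1 library than in any shCTRL library, as were 7.07% of all tested genes. Of 6 leukocyte markers 0 had values. Of 4 endothelial markers only Kdr had values, 1.04 to 2.78 RPKM in shCTRL and 0.495 to 3.60 RPKM in shHMGB1, and of 2 epithelial markers only Cdh1, which stayed at or under 0.736 RPKM. Their part in the results below was not tested. The libraries shHMGB1 A and shHMGB1 C stood apart from the rest: limma's array quality weights, which are low for libraries that deviate from the fitted group means over many genes, were 0.475 and 0.495 for them and 0.902 to 2.34 for the other 4. The estimation of these weights stopped with a convergence warning, so they are approximate. For many fold changes that shHMGB1 C turned or largely set, the value without it is given beside it. Where no such value is given, the fold change may still depend on that library.

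All 60 enzyme genes were expressed above the filter of a mean of 0.5 RPKM, so all 60 were tested. Their means over the 6 libraries ran from 0.938 RPKM for Kdm8 to 33.2 RPKM for Hdac1, with a median of 5.32 RPKM against 9.06 RPKM over all 11669 tested genes. A mean above 10 RPKM was reached by 20 of them and 6 stayed under 2 RPKM. The first 6 places were held by the class I deacetylase genes Hdac1, Hdac2 and Hdac3, the H3K9 methyltransferase genes Ehmt2 and Setdb1, and the acetyltransferase gene Kat2b. The fourth class I deacetylase gene, Hdac8, stood far lower, with group means of 2.65 and 3.06 RPKM in shCTRL and shHMGB1. Read numbers ran from 24 to 5002 per gene and library, and 3 genes had a library with fewer than 50 reads, which limits the precision of the sirtuin Sirt4, the H4K20 methyltransferase Kmt5c and the demethylase Kdm8. Of these names, Hdac3, Hdac8, Setdb1 and Kdm8 were chosen after their values were seen. Levels of neighbours in the order overlapped: Hdac1 spread from 22.3 to 52.2 RPKM, a range that takes in every value of Ehmt2, the next gene. In bulk RNA, a change in the number of cells that express a gene and a change in RNA per cell cannot be told apart.

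**Figure D1:**
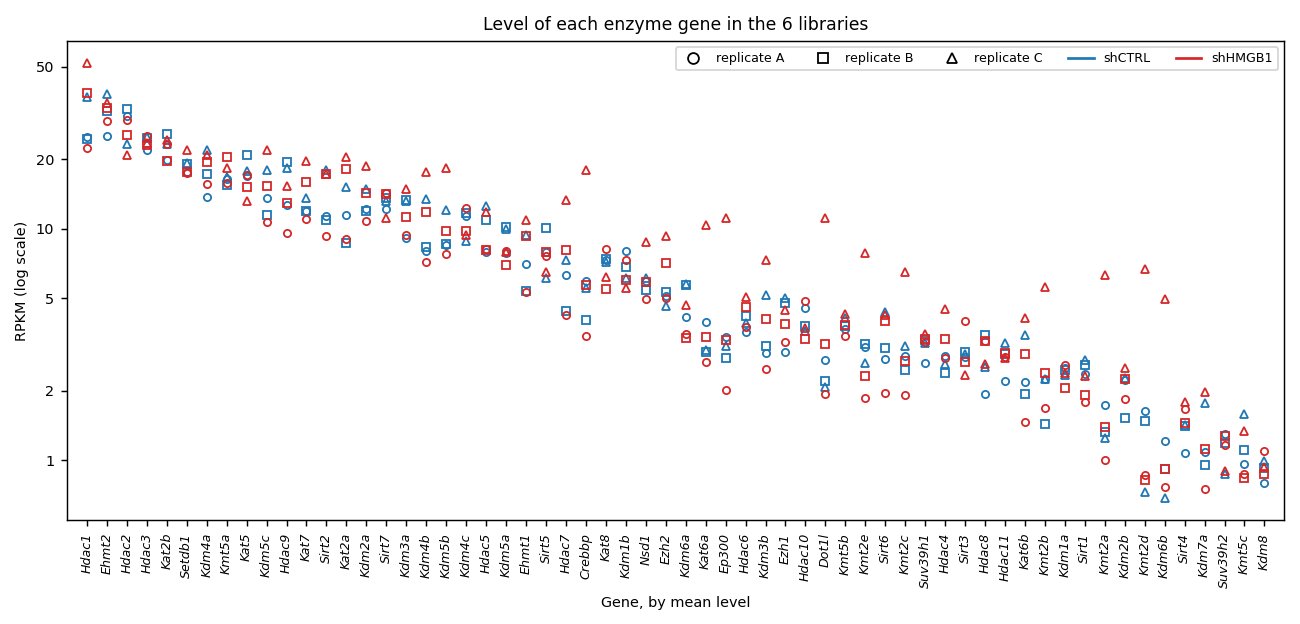
RPKM on a log scale (y) of each of the 60 enzyme genes, ordered by mean level (x), with 1 point per library: circles, squares and triangles for replicates A, B and C, blue for shCTRL and red for shHMGB1. The red triangles of shHMGB1 C stand clear above the other 5 points for genes such as Crebbp, Ep300, Dot1l, Kmt2a, Kmt2d and Kdm6b, while most other genes show mixed colours.

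Not 1 of the 60 genes passed the test between shHMGB1 and shCTRL (limma on log2(RPKM + 0.1), adjusted p from 0.687 to 0.997). Over all tested genes 3 passed, 0.0257%, with 0 higher and 3 lower. An unadjusted p under 0.05 was also reached by 0 of the 60, against 923 of all tested genes, 7.91%, and limma's voom on the recovered reads gave 0 and 0. Log2 fold changes ran from -0.43 for the H3K27 demethylase Kdm6a to 0.81 for the H3K79 methyltransferase Dot1l. The median was 0.10 over the 60 genes and 0.01 over all genes, with 38 positive and 22 negative. For 44 of the 60, 73.3%, the 95% interval lay between -1 and 1, close to the 74.6% of all genes, so changes larger than 2-fold lay outside the interval for these. The groups did not overlap for 1 gene with higher values in shHMGB1, Sirt4, and for 1 with lower values, Sirt1, against 6.9% and 7.07% of all genes.

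Many fold changes depended on shHMGB1 A or C. Without shHMGB1 C the median was -0.07, 22 genes were positive and 38 negative, and 24 of the 60 changed sign, 20 of them from positive to negative. Over all tested genes the median there was 0.007, with 5992 positive and 5677 negative. With fold changes refitted after gene length and GC content had been regressed out, an alternative added after the data were seen, the median was -0.02, with 28 positive and 32 negative. This was close to the 11422 genes of that fit, with a median of -0.01, 5472 positive and 5950 negative. Unadjusted p-values under 0.05 appeared for Kdm6a and the deacetylase Hdac9 under both settings, with 6.39% and 9.16% of all genes there. Their adjusted p was 0.696 and 0.766 without shHMGB1 C. Without shHMGB1 A the median was 0.26. Class medians went from 0.47 to 0.89 for H3K4, from 0.04 to 0.12 for H3K9 and from 0.17 to 0.35 for H3K27 methyltransferases. They went from 0.12 to 0.26 for H3K36, H3K79 and H4K20 methyltransferases, from 0.09 to 0.24 for demethylases and from 0.27 to 0.49 for acetyltransferases. Zinc-dependent deacetylases hardly moved, from 0.04 to 0.05, and sirtuins went down, from 0.01 to -0.05. There, 8 of the 60 had an unadjusted p under 0.05, with 20.9% of all genes, and 0 passed the adjusted threshold.

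**Figure D2:**
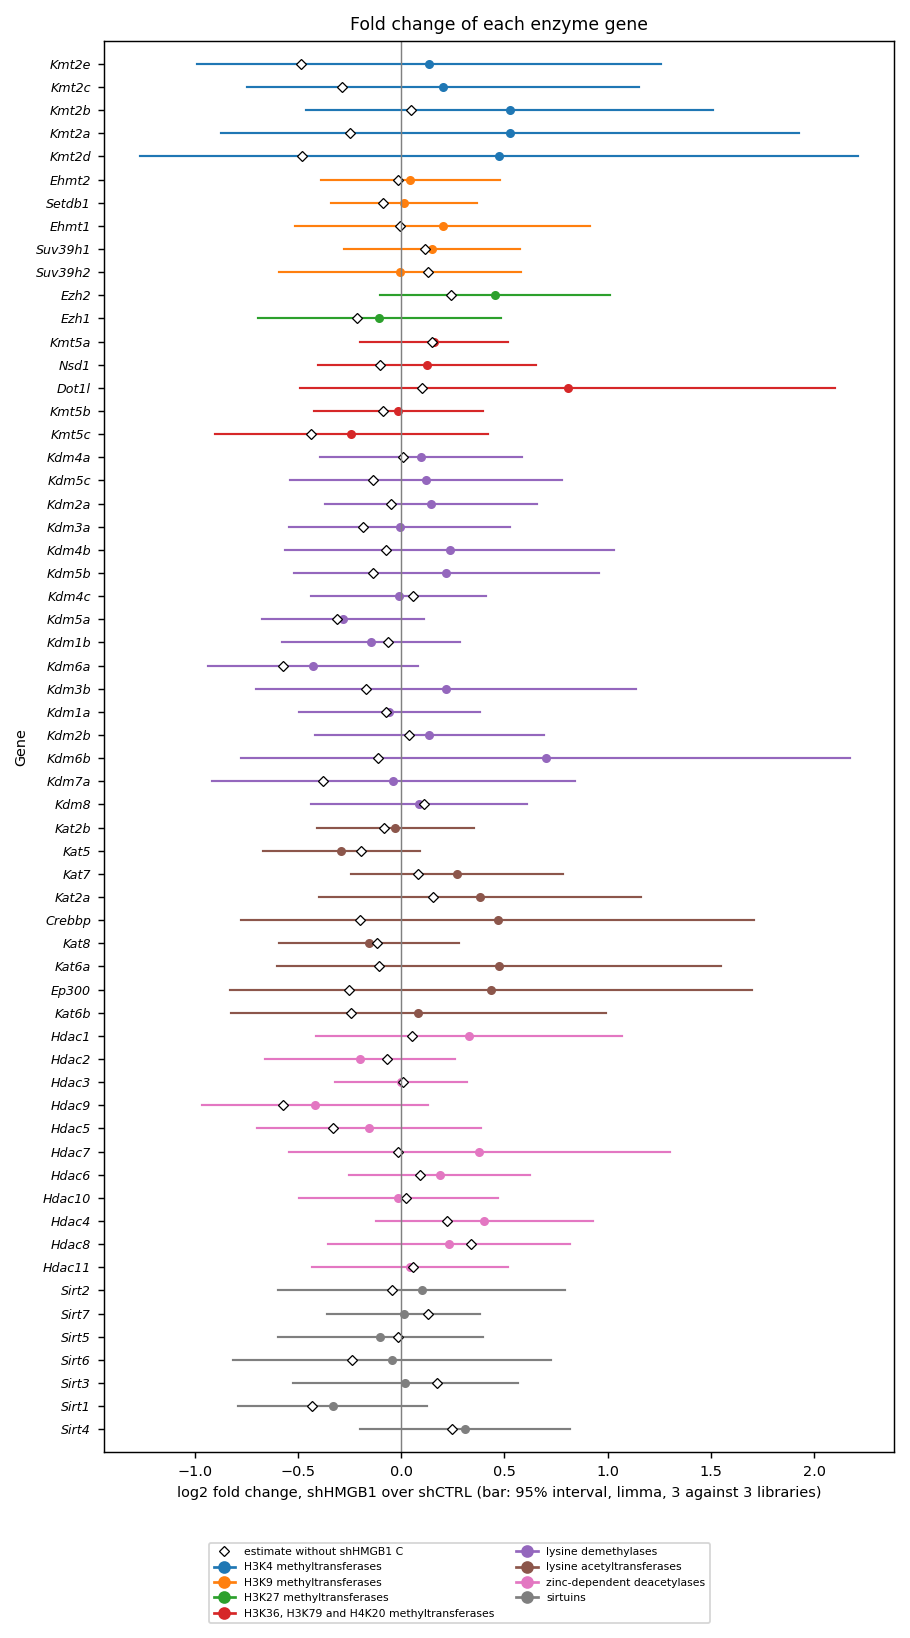
Log2 fold change of shHMGB1 over shCTRL (x) for each of the 60 enzyme genes (y), coloured by class, with 95% intervals from limma over 3 against 3 libraries and open diamonds for the estimate without shHMGB1 C. Every interval crosses 0, and the widest intervals, those of Kmt2d, Kdm6b, Kmt2a and Dot1l, have diamonds far to the left of their points.

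Of the 60 genes, 10 shared a pattern. In shHMGB1 C they stood at least 2-fold above each of the other 5 libraries: the genes of the H3K4 class, Kmt2a, Kmt2b, Kmt2c, Kmt2d and Kmt2e, with Dot1l, the H3K27 demethylase gene Kdm6b, and the acetyltransferase genes Kat6a, Ep300 and Crebbp. They were singled out after their values were seen. That is 10 of 60, 16.7%, against 401 of 11669 tested genes, 3.44%, and in each of the other 5 libraries 0 of the 60 did so. The count was 10 with libraries rescaled to equal sums of RPKM and 9 of the same 10 after quantile normalization, where Kmt2c was at 1.90 times the next library. The ratio of shHMGB1 C to the highest other library was 2.07 to 4.12 for the 10 genes, and the next gene in the order, the deacetylase gene Hdac7, was at 1.65.

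Kmt2d, on the minus strand of chromosome 15 (98831669 to 98871204), encodes a very large methyltransferase that monomethylates H3K4 at enhancers. It had 1.63, 1.48 and 0.727 RPKM in shCTRL A, B and C. In shHMGB1 it had 0.860, 0.824 and 6.72 RPKM, the last from 1986 reads. The shHMGB1 A and B values lay inside the shCTRL range and only shHMGB1 C stood above it, so the log2 fold change of 0.47 (interval -1.27 to 2.21; limma, adjusted p = 0.834) became -0.48 without it. Kmt2a, the gene of the mixed-lineage leukaemia methyltransferase on chromosome 9 (44803355 to 44881296, minus strand), had 1.74, 1.32 and 1.25 RPKM in shCTRL and 1.00, 1.39 and 6.34 RPKM in shHMGB1. Its log2 fold change of 0.53 became -0.25 without shHMGB1 C. Of its annotated exonic bases, 378 are shared with an antisense gene.

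Dot1l, on chromosome 10 (80755206 to 80795461, plus strand), encodes the H3K79 methyltransferase that travels with elongating RNA polymerase II. It had 2.71, 2.19 and 2.07 RPKM in shCTRL and 1.94, 3.17 and 11.1 RPKM in shHMGB1, and its log2 fold change was 0.81 (interval -0.49 to 2.10; limma, adjusted p = 0.736). Without shHMGB1 C it was 0.10. Kdm6b, on chromosome 11 (69398508 to 69413675, minus strand), encodes an H3K27 demethylase that is induced in inflammation and differentiation. Its values were 1.21, 0.914 and 0.684 RPKM in shCTRL and 0.764, 0.920 and 4.96 RPKM in shHMGB1. The log2 fold change went from 0.70 to -0.11 without shHMGB1 C.

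The paralogous coactivator acetyltransferases p300 and CBP, encoded by Ep300 on chromosome 15 (81585351 to 81652077, plus strand) and Crebbp on chromosome 16 (4081328 to 4213997, minus strand), acetylate H3K27 at enhancers. Ep300 had 3.40, 2.77 and 3.13 RPKM in shCTRL and 2.01, 3.29 and 11.1 RPKM in shHMGB1. Crebbp had 5.97, 4.02 and 5.56 RPKM in shCTRL and 3.44, 5.73 and 18.0 RPKM in shHMGB1. Both were lowest of all 6 libraries in shHMGB1 A and highest in shHMGB1 C. Their log2 fold changes of 0.44 and 0.47 were -0.25 and -0.20 without shHMGB1 C. Over all 10 genes the fold changes were 0.14 to 0.81 with shHMGB1 C and -0.49 to 0.10 without it, where 8 of 10 were negative. The 10 were picked by their values in shHMGB1 C, so a lower fold change without that library was fixed by the choice. Of the 10, 7 were lowest in shHMGB1 A, against 15.9% of all tested genes.

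**Figure D3:**
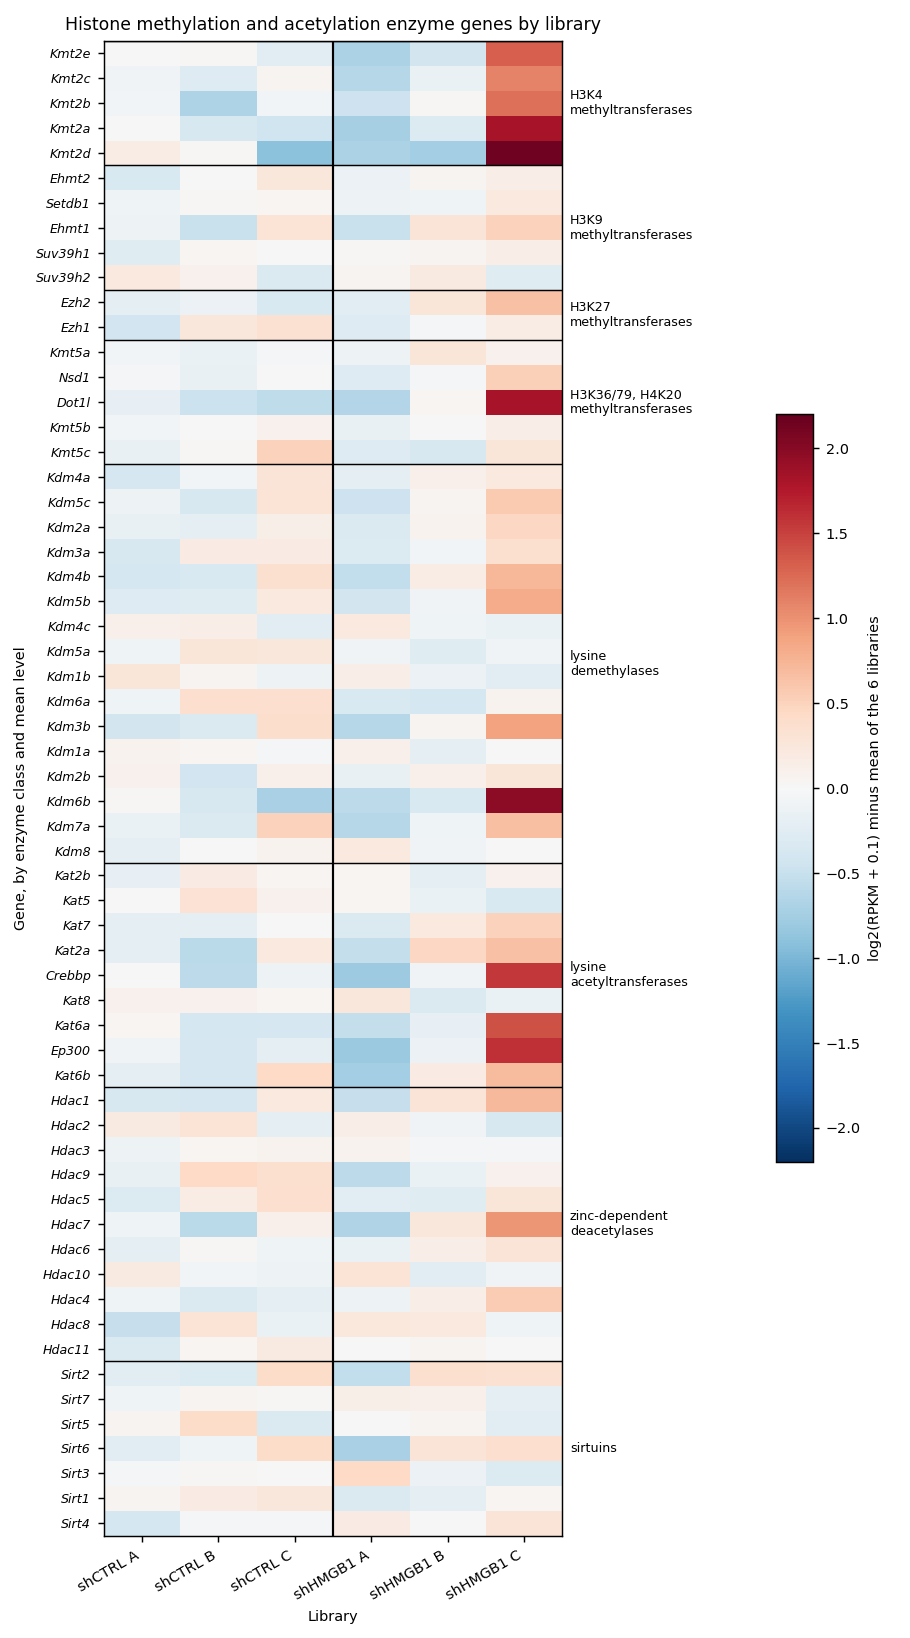
Heat map of log2(RPKM + 0.1) minus the gene's mean over the 6 libraries, red above and blue below, for the 60 enzyme genes (rows, by class and mean level) in the 6 libraries (columns). The shHMGB1 C column holds the darkest red cells, in the H3K4 methyltransferases, Dot1l, Kdm6b, Crebbp, Ep300 and Kat6a, and the shHMGB1 A column is blue for most of the same genes.

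The 10 genes are also long. The length over which reads were counted, recovered from the values, was 6.65 to 19.8 kb for them, and all 10 were among the 22 enzyme genes of at least 6 kb. That is 45.5% of the long enzyme genes, against 9.93% of the 1651 long genes among all tested genes, and 0 of the 38 shorter enzyme genes. The 6 kb limit was set after the data were seen. The other 12 long enzyme genes had ratios of shHMGB1 C to the highest other library of 0.780 to 1.51, and 9 of them were also highest there. Of these 12, 11 had negative fold changes without shHMGB1 C and 9 were lowest in shHMGB1 A. Neither trait was therefore particular to the 10. In all, 19 of the 22 long enzyme genes were highest in shHMGB1 C, 86.4%, against 65.4% of all long genes. The deacetylase gene Hdac9, counted over 10.7 kb, and the demethylase gene Kdm5a, over 10.9 kb, were among those without excess in shHMGB1 C. Enzyme genes as a whole were longer than the rest, with a median counted length of 4.81 kb against 3.08 kb.

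Across the 60 enzyme genes, the deviation from the gene's mean followed length with a Spearman correlation of 0.62 in shHMGB1 C and -0.62 in shHMGB1 A. Over all tested genes it was 0.50 and -0.35. Genes of a library share its preparation, so these are descriptions and not tests. The median log2 deviation in shHMGB1 C was 0.85 for long enzyme genes and 0.41 for all long genes, and it was -0.01 and -0.19 for those under 3 kb. In shHMGB1 A the long enzyme genes had a median of -0.58. Of the 60 genes, 32 had their highest value in shHMGB1 C and 25 their lowest in shHMGB1 A, 53.3% and 41.7%, against 28.9% and 15.9% of all tested genes. The part of length, RNA quality or library preparation in the shHMGB1 C values was not tested.

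**Figure D4:**
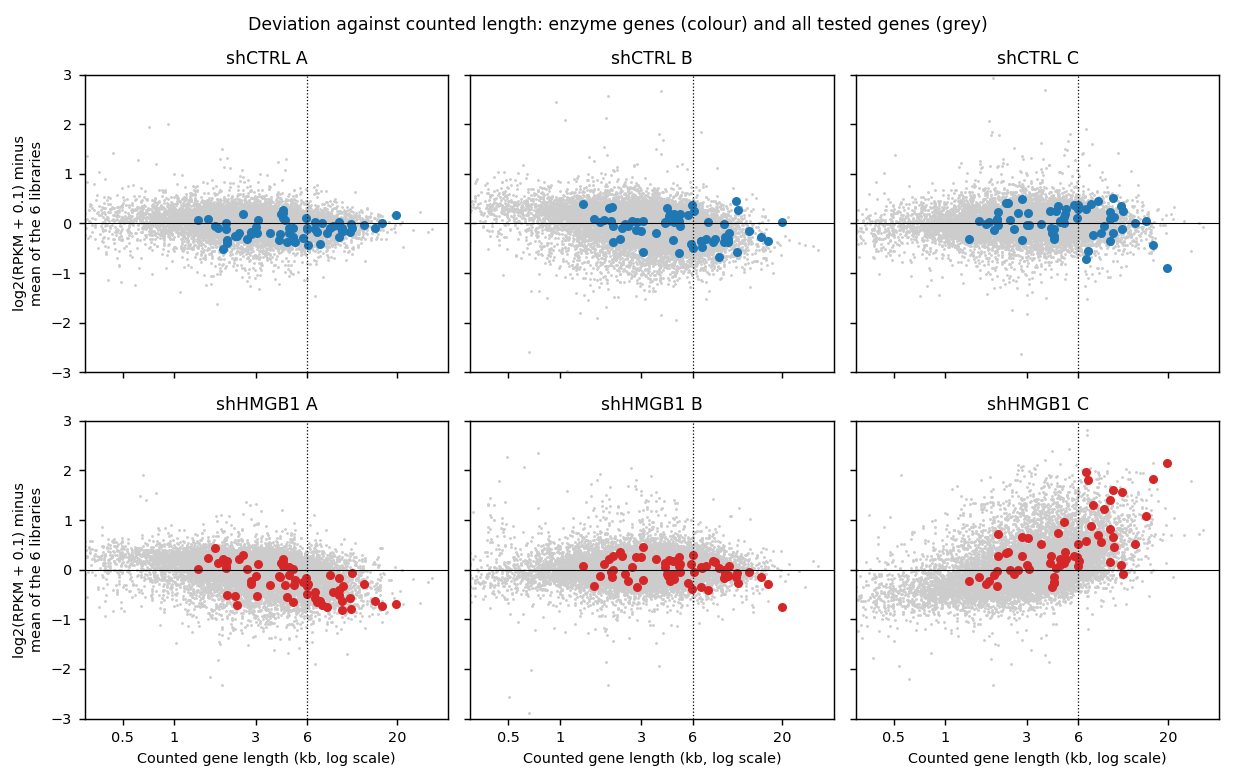
Log2(RPKM + 0.1) minus the gene's mean over the 6 libraries (y) against counted gene length in kb on a log scale (x), 1 panel per library, with enzyme genes in blue (shCTRL) or red (shHMGB1), all tested genes in grey and the 6 kb limit as a dotted line. Points beyond the axes are not drawn. The red points climb with length in shHMGB1 C and sink with length in shHMGB1 A, with Spearman correlations of 0.62 and -0.62.

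The start regions of genes at both ends of that range were read to see what their promoters have in common. The 250 bases before the RefSeq start (GRCm38.p6) are shown for the 2 enzyme genes with the highest deviation in shHMGB1 C and the 2 with the lowest, among genes with exactly 1 promoter in the reference table. Genes with several there, such as Kat5 and Sirt3, were not shown. Capitals mark the GC box, the hexamer GGGCGG or its reverse complement CCGCCC, which Sp1-family factors bind. Kmt2d is at chr15:98871206-98871455 (minus strand), Kmt2a at chr9:44881290-44881539 (minus), Hdac2 at chr10:36974294-36974543 (plus) and Suv39h2 at chr2:3474987-3475236 (minus).
Kmt2d: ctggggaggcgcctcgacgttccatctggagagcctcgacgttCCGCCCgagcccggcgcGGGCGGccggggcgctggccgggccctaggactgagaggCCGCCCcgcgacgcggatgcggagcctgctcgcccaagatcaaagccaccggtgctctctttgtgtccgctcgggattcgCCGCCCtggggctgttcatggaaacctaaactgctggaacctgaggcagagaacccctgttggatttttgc
Kmt2a: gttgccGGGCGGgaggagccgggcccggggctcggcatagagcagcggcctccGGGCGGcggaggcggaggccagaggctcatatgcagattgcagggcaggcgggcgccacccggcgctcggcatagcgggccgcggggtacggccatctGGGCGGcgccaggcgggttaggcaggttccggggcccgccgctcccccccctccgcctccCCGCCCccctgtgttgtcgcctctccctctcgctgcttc
Hdac2: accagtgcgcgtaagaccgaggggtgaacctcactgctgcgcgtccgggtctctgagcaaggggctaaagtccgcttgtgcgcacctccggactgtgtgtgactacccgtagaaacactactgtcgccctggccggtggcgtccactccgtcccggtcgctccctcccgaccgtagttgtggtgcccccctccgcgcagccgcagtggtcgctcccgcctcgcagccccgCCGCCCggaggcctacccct
Suv39h2: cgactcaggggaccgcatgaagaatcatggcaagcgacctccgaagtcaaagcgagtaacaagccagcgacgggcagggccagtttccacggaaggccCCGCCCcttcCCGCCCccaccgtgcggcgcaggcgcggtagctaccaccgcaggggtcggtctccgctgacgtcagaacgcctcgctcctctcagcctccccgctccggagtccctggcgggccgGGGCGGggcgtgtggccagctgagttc

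These 4 stretches hold 26, 29, 27 and 27 CpG dinucleotides in the order shown, and 4, 4, 1 and 3 GC boxes. None of the 4 holds CCAAT or TATAAA on either strand. Of the 60 enzyme genes, 48 had at least 1 promoter in the table, of which the first listed was searched, and Hdac1, Hdac3, Hdac10, Kat6a, Kdm2a, Kdm3b, Kdm4b, Kdm5a, Kdm6b, Kmt2b, Kmt2e and Nsd1 had none there. The GC box was found in 31 of 48, 64.6%, against 32.9% of 27025 promoters of the same length. CCAAT was found in 43.8% against 34.5%, and TATAAA in 2 of 48, 4.17%, against 13.0%. The median number of CpG dinucleotides was 15 against 6. The 27025 promoters outnumber the genes with values, so they take in genes without values here. The enzyme genes were not compared with expressed genes alone, so these shares cannot be read as particular to them. These matches describe the letters in the window and say nothing of which factors bound.

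Among the 5 genes of the H3K4 methyltransferase class, all placed there by their KMT2 names, the class median log2 fold change was 0.47. It was -0.29 without shHMGB1 C, 0.06 with length and GC content regressed out and 0.07 with array quality weights. All 5 were highest in shHMGB1 C. Kmt2e, the most abundant, had 3.10, 3.18 and 2.62 RPKM in shCTRL and 1.87, 2.32 and 7.85 RPKM in shHMGB1. Apart from shHMGB1 C, its shHMGB1 values lay below all 3 shCTRL values. Its log2 fold change was 0.14 (interval -0.99 to 1.26; limma, adjusted p = 0.926), and -0.49 without that library. Kmt2e, counted over 7.325 kb, shares 972 exonic bases with the opposite-strand gene Srpk2. Without a stated strand of counting, reads in those shared bases cannot be told apart from those of Srpk2. Kmt2b, on chromosome 7 (30568858 to 30588726), had 2.24, 1.43 and 2.25 RPKM in shCTRL and 1.68, 2.39 and 5.58 RPKM in shHMGB1, with a log2 fold change of 0.53 (adjusted p = 0.755) that was 0.05 without shHMGB1 C.

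The 5 H3K9 methyltransferase genes moved little, with a class median of 0.04, and for all 5 the interval lay between -1 and 1. Ehmt2, on chromosome 17 (34898469 to 34914052), encodes G9a, which mono- and dimethylates H3K9 in euchromatin. It had 25.1, 32.1 and 38.0 RPKM in shCTRL and 29.1, 33.1 and 35.0 RPKM in shHMGB1. The shHMGB1 values fell inside the shCTRL range, and the log2 fold change was 0.04 (interval -0.39 to 0.48; limma, adjusted p = 0.937), or -0.01 without shHMGB1 C. Suv39h1 and Suv39h2 encode the enzymes that trimethylate H3K9 in pericentric heterochromatin. Suv39h1 had 2.63, 3.30 and 3.20 RPKM in shCTRL and 3.24, 3.34 and 3.53 RPKM in shHMGB1 (log2 fold change 0.15, interval -0.28 to 0.57, adjusted p = 0.799), with 767 exonic bases shared with an antisense gene. Suv39h2, the smaller of the pair by level, had a mean of 1.12 ± 0.224 RPKM in shCTRL and 1.11 ± 0.192 RPKM in shHMGB1 (SD, n = 3 each).

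Of the H3K27 methyltransferases, the catalytic subunits of Polycomb repressive complex 2, Ezh2 is the form of dividing cells and Ezh1 that of resting ones. Ezh2, on chromosome 6 (47530139 to 47595341, minus strand), had 5.11, 5.36 and 4.64 RPKM in shCTRL and 5.01, 7.09 and 9.33 RPKM in shHMGB1. Libraries B and C of shHMGB1 lay above every shCTRL library and A lay among them. The log2 fold change was 0.45 (interval -0.10 to 1.01; limma, adjusted p = 0.688) and 0.24 without shHMGB1 C. Ezh1 had 2.93, 4.77 and 5.02 RPKM in shCTRL and 3.24, 3.87 and 4.47 RPKM in shHMGB1, a log2 fold change of -0.11 (interval -0.69 to 0.48) that was -0.21 without shHMGB1 C.

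The class for H3K36, H3K79 and H4K20 had a median of 0.12, and -0.09 without shHMGB1 C. Kmt5a, the sole enzyme that monomethylates H4K20, was its most abundant member, on chromosome 5 (124439930 to 124462308). It had 16.3, 15.4 and 16.8 RPKM in shCTRL and 15.7, 20.5 and 18.3 RPKM in shHMGB1, a log2 fold change of 0.16 (interval -0.20 to 0.52; limma, adjusted p = 0.777). Kmt5c, which adds further methyl groups to H4K20, had 0.961, 1.11 and 1.58 RPKM in shCTRL and 0.874, 0.838 and 1.34 RPKM in shHMGB1, from 34 to 114 reads. The log2 fold change was -0.24 (interval -0.90 to 0.42; limma, adjusted p = 0.797), and -0.44 without shHMGB1 C.

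Of the 16 lysine demethylase genes 9 were positive and 7 negative, with a median of 0.09 that was -0.09 without shHMGB1 C. Kdm4a, a Jumonji demethylase of H3K9 and H3K36, was the most abundant, at 13.7, 17.2 and 21.9 RPKM in shCTRL and 15.6, 19.4 and 20.8 RPKM in shHMGB1. Its groups overlapped almost wholly (log2 fold change 0.10, interval -0.39 to 0.58, and 0.01 without shHMGB1 C). Kdm6a, the X-linked H3K27 demethylase UTX and a subunit of the KMT2C and KMT2D complexes, lies on chromosome X (18162575 to 18279936). It had 4.16, 5.74 and 5.78 RPKM in shCTRL and 3.50, 3.37 and 4.70 RPKM in shHMGB1. Only shHMGB1 C reached the shCTRL range, and the log2 fold change was -0.43 (interval -0.94 to 0.08; limma, adjusted p = 0.687), the lowest adjusted p of the 60 genes. Kdm5a and Kdm5c, demethylases of H3K4, had log2 fold changes of -0.28 and 0.12 with intervals of -0.67 to 0.11 and -0.54 to 0.78. Kdm5c was highest in shHMGB1 C, and without that library the values were -0.31 and -0.14.

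The 9 lysine acetyltransferase genes had a median of 0.27, and -0.12 without shHMGB1 C. Kat2b, which encodes PCAF of the SAGA-type complexes and was the most abundant, had 19.7, 25.5 and 23.2 RPKM in shCTRL and 23.2, 19.7 and 24.1 RPKM in shHMGB1. The 2 groups covered nearly the same range (log2 fold change -0.03, interval -0.41 to 0.35). Kat7, the H3K14 acetyltransferase HBO1, had 11.9, 12.0 and 13.6 RPKM in shCTRL and 11.0, 15.9 and 19.6 RPKM in shHMGB1, with a log2 fold change of 0.27 (adjusted p = 0.758), or 0.08 without shHMGB1 C. Kat5, the NuA4 acetyltransferase TIP60 with a part in the DNA damage response, had 16.8, 20.9 and 17.8 RPKM in shCTRL and 17.1, 15.1 and 13.2 RPKM in shHMGB1. Its shHMGB1 B and C values lay below all shCTRL values and the log2 fold change was -0.29 (interval -0.67 to 0.09; limma, adjusted p = 0.712). It shares 426 exonic bases with Rnaseh2c on the other strand. Kat6a, the MOZ acetyltransferase, had 3.96, 2.94 and 2.98 RPKM in shCTRL and 2.67, 3.41 and 10.4 RPKM in shHMGB1, and its log2 fold change of 0.47 was -0.11 without shHMGB1 C.

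Among the 11 zinc-dependent deacetylase genes the median was 0.04, and 0.02 without shHMGB1 C. Hdac1 and Hdac2 are the catalytic subunits of the Sin3, NuRD and CoREST complexes. Hdac1, on chromosome 4 (129516104 to 129542713), had 24.9, 24.4 and 37.0 RPKM in shCTRL and 22.3, 38.5 and 52.2 RPKM in shHMGB1. It was lowest in shHMGB1 A and highest in shHMGB1 C although it was counted over only 2.04 kb, and its log2 fold change was 0.33 (interval -0.41 to 1.07; limma, adjusted p = 0.775), or 0.05 without shHMGB1 C. Hdac2 ran the other way, with 30.7, 33.1 and 23.2 RPKM in shCTRL and 29.5, 25.3 and 20.9 RPKM in shHMGB1 (log2 fold change -0.20, interval -0.66 to 0.26, and -0.07 without shHMGB1 C). Its lowest value was the one in shHMGB1 C.

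The class IIa deacetylases Hdac4 and Hdac9, which bind MEF2 factors, lay at opposite ends of the class. Hdac4 had 2.81, 2.39 and 2.60 RPKM in shCTRL and 2.76, 3.34 and 4.49 RPKM in shHMGB1. Its shHMGB1 B and C values lay above the shCTRL range and the log2 fold change was 0.40 (interval -0.12 to 0.93; limma, adjusted p = 0.706) and 0.22 without shHMGB1 C. The gene has 3536 exonic bases shared with an opposite-strand non-coding gene, Gm26720. Hdac9, on chromosome 12 (34047580 to 34917095, minus strand), had 12.7, 19.5 and 18.3 RPKM in shCTRL and 9.60, 12.9 and 15.3 RPKM in shHMGB1. The groups overlapped at shCTRL A, and the log2 fold change was -0.42 (interval -0.97 to 0.13; limma, adjusted p = 0.706). Without shHMGB1 C it was -0.57.

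The 7 sirtuin genes had a median of 0.01, and all 7 intervals lay between -1 and 1. Sirt2, the mostly cytoplasmic sirtuin that deacetylates H4K16 in mitosis, was the most abundant, with 11.4, 10.9 and 18.0 RPKM in shCTRL and 9.27, 17.2 and 17.2 RPKM in shHMGB1 (log2 fold change 0.10, and -0.05 without shHMGB1 C). Sirt1, the nuclear deacetylase of H4K16, p53 and other proteins, on chromosome 10 (63319005 to 63381704), had 2.36, 2.58 and 2.71 RPKM in shCTRL and 1.79, 1.92 and 2.32 RPKM in shHMGB1. All 3 shHMGB1 values lay below all 3 shCTRL values, by a narrow margin at 2.32 against 2.36 RPKM, and the log2 fold change was -0.33 (interval -0.79 to 0.13; limma, adjusted p = 0.717). Sirt4, a mitochondrial sirtuin and so no histone enzyme, had 1.08, 1.41 and 1.43 RPKM in shCTRL and 1.66, 1.45 and 1.78 RPKM in shHMGB1, from 30 to 74 reads. Its shHMGB1 values lay above all shCTRL values, with a log2 fold change of 0.31 (interval -0.20 to 0.81; limma, adjusted p = 0.739). Sirt3 and Sirt5 are mitochondrial too, and were included by name.

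The balance between related enzymes was compared as a ratio within each library, which does not depend on the scaling between libraries. For 10 pairs, 7 differences between the groups were positive and 3 negative, 0 had groups that did not overlap, and the lowest exact permutation p (two-sided, 3 against 3, smallest possible 0.1) was 0.2, or 0.75 adjusted over the 10 pairs. Ezh2 over Ezh1 was 1.74, 1.12 and 0.924 in shCTRL (A, B, C). In shHMGB1 it was 1.55, 1.83 and 2.08, a difference of 0.57 in mean log2 ratio (exact permutation p = 0.2). Only shCTRL A reached the shHMGB1 range. Hdac1 over Hdac2 was 0.813, 0.739 and 1.59 in shCTRL and 0.756, 1.52 and 2.50 in shHMGB1, a log2 difference of 0.53 (exact permutation p = 0.6) that was 0.12 without shHMGB1 C.

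Ep300 over Crebbp was the steadiest ratio. It was 0.570, 0.689 and 0.563 in shCTRL and 0.584, 0.574 and 0.619 in shHMGB1, although both genes were at their highest in shHMGB1 C. The mean log2 ratio was -0.73 ± 0.16 in shCTRL and -0.76 ± 0.06 in shHMGB1 (SD, n = 3 each). Kdm6a over Kdm6b, the 2 H3K27 demethylases, varied most. It was 3.44, 6.27 and 8.44 in shCTRL and 4.59, 3.66 and 0.948 in shHMGB1, with a log2 difference of -1.17 (exact permutation p = 0.3) that was -0.47 without shHMGB1 C. The other 6 pairs, Ehmt2/Ehmt1, Suv39h1/Suv39h2, Kat2a/Kat2b, Kat6a/Kat6b, Kmt2d/Kmt2c and Kdm5c/Kdm5a, had log2 differences from -0.16 to 0.41. Without shHMGB1 C, 2 of the 10 pairs changed sign. Kmt2d/Kmt2c went from 0.28 to -0.22 and Suv39h1/Suv39h2 from 0.16 to -0.02.

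**Figure D5:**
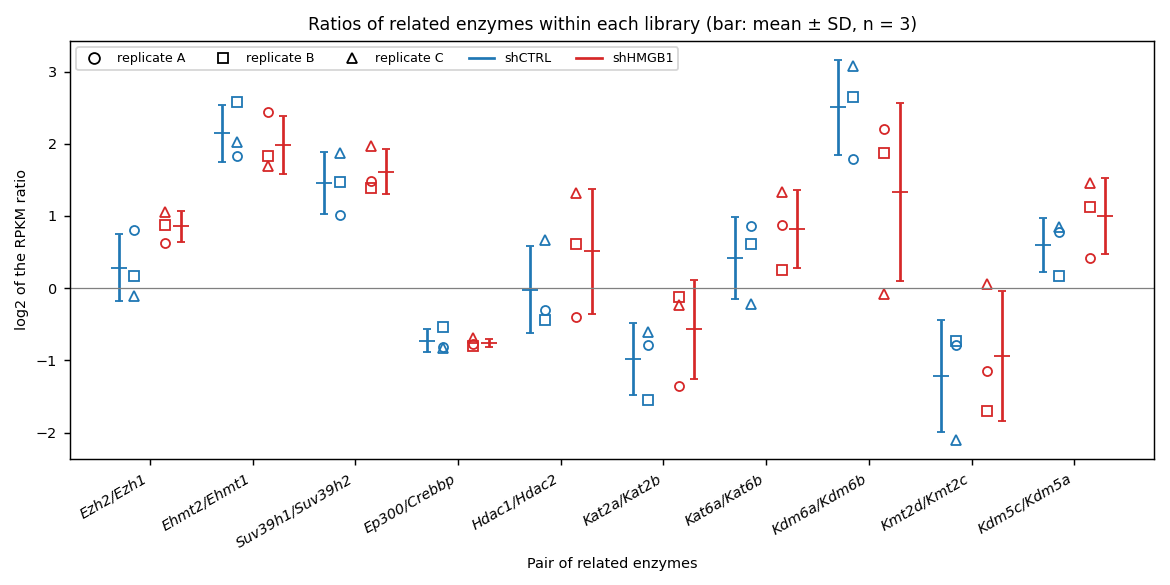
Log2 of the RPKM ratio of 2 related enzymes within each library (y) for 10 pairs (x), with circles, squares and triangles for replicates A, B and C, blue for shCTRL and red for shHMGB1, and bars for mean ± SD (n = 3). The groups overlap in all 10 pairs, Ep300/Crebbp lies in the narrowest band, and the red triangle of Kdm6a/Kdm6b, shHMGB1 C, lies far below the other points.

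Partners and further histone-modifying genes were examined in 8 lists. Not 1 gene of these lists passed the test, against 0.0257% of all tested genes. An unadjusted p under 0.05 was reached by 1, Mier1 among 34 deacetylase partners, against 7.91% of all tested genes. The median log2 fold change was 0.20 over 9 tested Polycomb repressive complex 2 partners, close to 0 over 13 partners of the H3K4 complexes (6 positive, 7 negative), 0.23 over 16 other lysine methyltransferases and 0.09 over 8 arginine methyltransferases. It was 0.18 over 9 other Jumonji proteins, 0.13 over 39 partners of acetyltransferases, 0.13 over the 34 deacetylase partners and 0.49 over the 3 tested BET genes, whose proteins read acetylated histones. Positive members numbered 7 of 9, 11 of 16, 6 of 8, 8 of 9, 27 of 39, 24 of 34 and 3 of 3 in the lists other than that of the H3K4 complexes. Over all tested genes 6030 of 11669 were positive. Without shHMGB1 C the same lists had 5 of 9, 5 of 16, 6 of 8, 6 of 9, 17 of 39, 14 of 34 and 2 of 3 positive. Without shHMGB1 C the 8 medians lay between -0.08 and 0.18. The BET median rests on few genes and was 0.14 without shHMGB1 C and 1.07 without shHMGB1 A. Jarid2 stands in 2 of the lists.

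Mier1, which recruits class I deacetylases, had 16.1, 18.4 and 21.5 RPKM in shCTRL and 12.7, 13.5 and 14.8 RPKM in shHMGB1. All 3 shHMGB1 values lay below all shCTRL values, with a log2 fold change of -0.44 (interval -0.81 to -0.06; limma, adjusted p = 0.575), and -0.50 without shHMGB1 C. Ing5, a subunit of the HBO1 and MOZ acetyltransferase complexes, had 7.08, 6.51 and 6.31 RPKM in shCTRL and 8.88, 8.43 and 7.28 RPKM in shHMGB1 (log2 fold change 0.30, adjusted p = 0.690). Here all shHMGB1 values lay above all shCTRL values. Of all tested genes, 6.9% had groups that did not overlap with shHMGB1 higher, and 7.07% with shHMGB1 lower. The histone-binding protein gene Rbbp7, shared by Polycomb, NuRD and Sin3 complexes, was steady, with 168 to 179 RPKM in shCTRL and 182 to 188 RPKM in shHMGB1, groups that did not overlap, and a log2 fold change of 0.08 (interval -0.26 to 0.41).

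The H3K4 complex subunit genes Wdr5 and Dpy30 had log2 fold changes of -0.22 and 0.14, with intervals of -0.60 to 0.16 and -0.39 to 0.66. Without shHMGB1 C the fold changes were -0.18 and 0.37. All 5 KMT2 genes were highest in shHMGB1 C. Of the 13 tested partners, 3 were highest (23.1%) and 4 lowest (30.8%) there, against 28.9% and 29.2% of all tested genes. Dpy30, counted over only 0.974 kb, was lowest there, at 26.9 RPKM against 29.1 to 45.8 RPKM in the other libraries. The difference between the KMT2 and partner genes was not tested. Morf4l2, an acetyltransferase complex subunit and the most abundant gene of its list, had 324, 368 and 261 RPKM in shCTRL and 326, 212 and 194 RPKM in shHMGB1 (log2 fold change -0.40, interval -0.97 to 0.16). Prmt1, the main arginine methyltransferase of H4R3, had 13.4, 8.49 and 16.1 RPKM in shCTRL and 11.2, 21.0 and 28.5 RPKM in shHMGB1, with a log2 fold change of 0.62 (interval -0.23 to 1.47; limma, adjusted p = 0.717) that was 0.33 without shHMGB1 C. The BET genes Brd2 and Brd3 had 0.10 and 0.71 (intervals -0.24 to 0.44 and -0.40 to 1.81), and Brd3 was highest in shHMGB1 C at 9.41 RPKM, with a fold change of 0.32 without that library. Log2 fold changes of the others were 0.69 for the Polycomb partner Phf19, -0.15 for Smyd2, -0.29 for Setd3 and -0.05 for Prmt3. They were -0.01 for Jmjd6, 0.40 for Hspbap1 and 0.06 for the NuRD subunit Mta2. The limma adjusted p of these genes ran from 0.706 to 0.994. Phf19 was highest in shHMGB1 B, at 1.32 RPKM against 0.316 to 0.686 RPKM in the other libraries. Phf19 and Hspbap1 had libraries with as few as 16 and 24 reads, which limits their precision.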

How the data were processed

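RNA from 6 cultures was sequenced after ribosomal RNA removal, with a TruSeq RNA kit, per the labels' protocols. The submitters' processing notes name Trimmomatic 0.32, STAR 2.5.3a, featureCounts, edgeR and the build mm10/GRCm38. Not given are the strand of counting, the gene model and the filter on genes. Reads in bases shared by genes on opposite strands therefore cannot be told apart. With another gene on either strand, 26 of the 60 enzyme genes share annotated exonic bases, and 12 share at least 300.

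The deposited values are log2 RPKM, not RPKM as the test design had assumed, and were raised as powers of 2. Whole reads, and with them depth and counted gene length, were recovered for 99.98% of genes. Of the values of 1610 single-transcript genes, 90.3% lay within 0.05 of a whole read. Tests were made with limma 3.58.1 (R 4.3.3) on log2(RPKM + 0.1), with eBayes trend and robust, over the 11669 genes whose mean reached 0.5 RPKM (465 left out). P-values were adjusted by Benjamini-Hochberg over all of them, with a threshold of 0.05. Fold changes on this scale understate those of low genes. The fit was tested on simulated data. Pairs were compared by an exact permutation test.

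The members, classes, lists and named genes were chosen with earlier results of these data known. Text names Hmgb1, from each class the member with the highest mean and the smallest p in each direction, the genes of 10 pairs, and from each list the member with the highest mean and the smallest p. Other names were chosen after their values were seen. The labels do not say that replicate letters mark a shared batch. Same-letter deviations correlated at 0.15, -0.10 and 0.48 for A, B and C, so letters were not taken as pairs.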

Additional observations from a re-analysis of the deposited data

How the results depend on the processing

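No enzyme gene passed the threshold in the main analysis or in any of its 18 alternatives. The 3 calls over all genes became 0 with a filter of 5 RPKM, 5 with libraries rescaled to equal sums, 21 with array quality weights, 7 with the replicate letter as a replicate block, 7 with gene length and GC content regressed out (added after seeing the data) and 0 to 8 when 1 library was left out. Hmgb1 had an adjusted p of 0.0546 under that filter. Under equal sums the all-gene median was 0.36 in place of 0.01, and the other medians shifted with it: those of the 60 enzyme genes (0.45), H3K9 (0.40), H3K27 (0.53) and H3K36, H3K79 and H4K20 methyltransferases (0.48), demethylases (0.43), zinc-dependent deacetylases (0.39), sirtuins (0.36), and of partners of Polycomb (0.54), H3K4 complexes (0.35), other lysine (0.58) and arginine methyltransferases (0.44), other Jumonji proteins (0.53), acetyltransferase (0.48) and deacetylase partners (0.49). The highest medians under equal sums were those of the BET genes (0.84), H3K4 methyltransferases (0.81) and acetyltransferases (0.63). The H3K27 median was 0.45 at 5 RPKM, where Ezh2 alone remained, and that of H3K36, H3K79 and H4K20 was -0.0905 with length and GC regressed out. The sirtuin median was -0.0476 after quantile normalization and 0.0939 with array weights. The BET median was 0.10 at 5 RPKM and 0.21 with array weights. With 1 library left out, the medians ran from -0.29 (without shHMGB1 C) to 0.89 for H3K4, from -0.0049 to 0.18 for H3K9 and from -0.0889 to 0.26 for H3K36, H3K79 and H4K20 methyltransferases, from -0.0501 to 0.0361 for sirtuins and from -0.08 to 0.29 for other lysine methyltransferases. The block left the medians as they were and gave 1 enzyme gene an unadjusted p under 0.05. Among 50 named genes, 64 of 880 alternative values changed sign, 14 of them without shHMGB1 C and 13 under equal sums, and the cause was not tested. Depth limits genes under 50 reads.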
